A study of Homo sapiens with 6 samples.

Results

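Transfected A549 cells were compared with untransfected cells, with the 4 transfected arrays (2 given a plasmid encoding human PIAS3, 2 given an siRNA against STAT3) taken as one side and the 2 control arrays as the other. The members described are the probe sets, other than the array's own control probe sets, that were shifted alike, meaning that all 4 transfected arrays lay above both control arrays or all 4 lay below both. Of 22215 probe sets tested, 4126 met that rule. With only 4 arrays against 2, many probe sets would meet the rule by ordering alone, without any effect of transfection. The 4126 are therefore not a count of probe sets that responded. The rule rests on the measured values themselves, so it describes these probe sets and is no test of them. Their difference was tested with limma on the log2 values, 4 arrays against 2, with Benjamini-Hochberg adjustment over all 22215 probe sets.

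A549 is an established human lung adenocarcinoma line. All cells were seeded for 12 h in medium with 10% FBS, and RNA was extracted 48 h after transfection. The PIAS3 arrays received human PIAS3 in the pCMV5 expression vector, and the STAT3 siRNA arrays received only that siRNA. The control arrays carry the name EGFplus and, per the labels, were not transfected. The design text puts every group in serum-free medium and then EGF, whereas only the control titles name EGF. No mock transfection, empty vector or non-targeting siRNA is among the 6 arrays. Transfection as such, an effect shared by PIAS3 and the STAT3 siRNA, and a difference in EGF exposure therefore cannot be told apart. Whether replicate arrays stand for independent cultures is not stated, and the p-values below then reflect only array-to-array spread, possibly of technical origin.

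STAT3 is a transcription factor that cytokine and growth factor receptors switch on through phosphorylation, and PIAS3 is a SUMO ligase known for binding active STAT3 and keeping it from DNA. EGF acts through its receptor on the Ras and ERK cascade, which induces short-lived transcription factors and secreted growth factors. CCN2 and CCN1 are secreted matrix proteins whose genes respond to the YAP and TEAD factors, to TGF-beta and to serum.

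The arrays had log2 medians of 6.63 to 6.72, and probe sets for bacterial transcripts that should be absent read between 3.26 and 3.93. STAT3 at its brighter probe set stood at 10.23 and 9.94 with the siRNA, 10.18 and 9.70 with PIAS3 and 10.50 and 10.43 in the controls. All 4 transfected arrays were below both controls there, by -0.46 ± 0.15 (SE, 4 against 2 arrays) with a limma adjusted p of 0.488. Taken apart, the siRNA arrays were at -0.38 ± 0.18 and the PIAS3 arrays at -0.53 ± 0.18 from the shared controls. At the other STAT3 probe set they were at -0.33 ± 0.15 and -0.60 ± 0.15. On average STAT3 RNA was thus no lower with its siRNA than with PIAS3. PIAS3 stood at 7.78 and 7.72 in its own arrays, 7.50 and 7.64 with the siRNA and 7.70 and 7.71 in the controls, a PIAS3 minus siRNA difference of 0.18 with a limma adjusted p of 0.666. Markers of the line, KRT19, EPCAM and AKR1B10 among them, averaged 11.0 to 11.6 per array over 9 genes. They were not all level between the sides. TFF1, KRT19 and EPCAM lay below both controls in all 4 transfected arrays, and CDH1, ALDH1A1 and AKR1B10 above. Lineage markers of lung epithelium, a separate list of 14 genes, averaged only 6.52 to 6.64. Markers of leukocytes averaged 5.49 to 5.70 over 12 genes, those of fibroblasts 5.51 to 5.62 over 11 and those of endothelium 4.98 to 5.09 over 9. PIAS3 replicate 1 stood apart: its 24 poly-A spike-in probe sets had a median 1.41 above the control mean, against -0.36 to -0.13 in the other transfected arrays, and interferon-stimulated genes were high in it alone.

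The shift common to the 4 transfected arrays was small in most probe sets and leaned slightly to lower levels. A total of 1832 probe sets (8.25% of those tested) lay above both controls in all 4 arrays, and 2294 (10.3%) lay below. These shares include the probe sets that ordering alone would place there, and that part was not taken off. The limma test of the sides called 0 of 22215 probe sets higher (0%) and 2 lower (0.009%) at an adjusted p of 0.05. At an unadjusted p of 0.05 it gave 795 higher (3.58%) and 1006 lower (4.53%). The limma contrast of PIAS3 minus STAT3 siRNA, described below, gave nearly the same numbers at that threshold, 793 higher and 1006 lower. By these counts the sides differed no more widely than the transfections did from each other. Lower levels prevailed where the sides were far apart. With a gap of at least 0.5 log2 between the nearest arrays of the sides, 14 probe sets were higher (0.063%) and 63 lower (0.284%). The probe sets nearest that threshold among the higher ones were GNAL inside at a gap of 0.503 and PPFIBP2 outside at 0.499. Among the lower ones GATA6 lay inside at -0.503 and ABLIM3 outside at -0.497. A gap of 1 log2 or more was found for TFF1, CCL2, RASGRP1 and TMEM158, all of them lower.

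**Figure D1:**
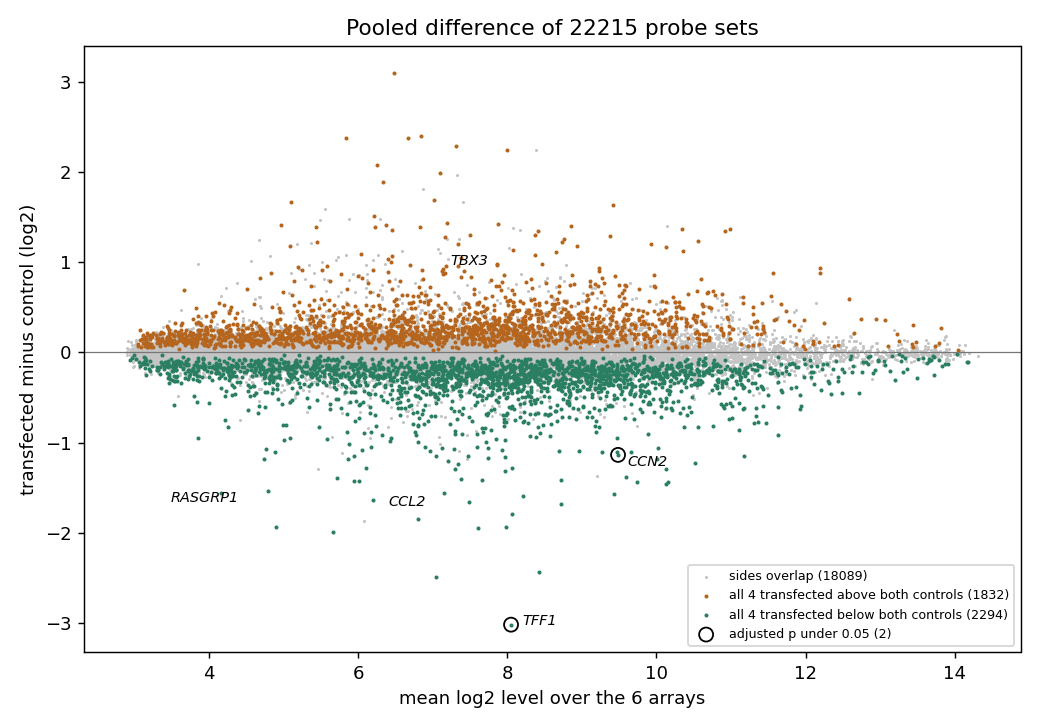
Each point is 1 of 22215 probe sets, with its mean log2 level over the 6 arrays on the horizontal axis and the transfected minus control difference (log2) on the vertical axis. The 1832 higher and 2294 lower probe sets without overlap of the sides are coloured, and the circled points are TFF1 and CCN2, the 2 with an adjusted p under 0.05.

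TFF1, a trefoil peptide that mucus-secreting epithelia release and that protects mucosal surfaces, fell furthest. It stood at 7.16 and 7.12 with the siRNA and at 7.29 and 6.61 with PIAS3, against 10.08 and 10.04 in the controls. All 4 transfected arrays were far below both controls, and the nearest of them, PIAS3 replicate 1, was still 2.75 log2 away. The pooled difference was -3.02 ± 0.18, an 8.10-fold lower level, with a limma adjusted p of 0.00585. Taken apart, the PIAS3 arrays were at -3.11 and the siRNA arrays at -2.92 from the controls that both share. The call was lost without STAT3 siRNA replicate 2 (adjusted p = 0.103), control replicate 1 (0.296) or control replicate 2 (0.27), while the difference stayed between -3.10 and -2.87. With 1 control array left, the spread comes from the transfected arrays alone and the single control is assumed to vary like them. Among 16 measured trefoil, mucin and secretory genes, TFF1 was the only 1 below both controls in all 4 transfected arrays. Above both lay 6 (37.5%, against 9.01% of all genes): AGR2, FOXA2, MUC5B, SPDEF, MUC1 and FOXA1.

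CCN2, known also as connective tissue growth factor, was the other gene that passed the adjusted threshold. Its level was 9.13 and 9.07 with the siRNA and 9.02 and 9.20 with PIAS3, against 10.30 and 10.18 in the controls. The 4 transfected arrays lay close together and all below the controls. The pooled difference was -1.14 ± 0.09, a 2.20-fold lower level, with a limma adjusted p of 0.03. With each group given its own mean the adjusted p was 0.0518. It was 0.19 without STAT3 siRNA replicate 2, 0.156 without PIAS3 replicate 2, 0.999 without control replicate 1 and 0.57 without control replicate 2, with differences from -1.20 to -1.07.

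The sequence before the CCN2 start is shown because it holds the motif of the TEAD factors, for which CCN2 is a textbook target. The 250 bases upstream of the RefSeq start (GRCh38.p14, chr6:131951373-131951622, minus strand), 5′ to 3′, are printed with the TEAD motif CATTCC, read here on the other strand as GGAATG, and the TATA motif TATAAA in capitals.
CCN2 promoter: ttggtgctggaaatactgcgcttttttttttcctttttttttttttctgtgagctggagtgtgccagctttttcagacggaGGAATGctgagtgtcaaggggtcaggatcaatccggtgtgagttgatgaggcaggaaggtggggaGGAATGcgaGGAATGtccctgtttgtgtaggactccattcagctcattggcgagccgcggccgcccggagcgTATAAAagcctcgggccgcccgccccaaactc
The 3 TEAD matches begin at -169, -104 and -95 from the start, and the TATA match at -32. The match at -95 overlaps a match to the kappa B pattern on the other strand. Searched on both strands over 300 bases, CATTCC occurs in 14.0% of 27305 RefSeq promoters, in 11.3% of the 9563 promoters of measured genes and in 4 of 39 (10.3%) promoters of the genes lower with a gap of at least 0.5.

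Several genes of Ras, receptor and early response signalling were in the lower set. RASGRP1, an exchange factor that loads Ras with GTP, was at 4.45 and 4.02 with the siRNA, 4.07 and 4.57 with PIAS3 and 5.73 and 5.89 in the controls. Its sides did not overlap, and the difference was -1.53 ± 0.17 with a limma adjusted p of 0.0957. TMEM158, a membrane protein gene first described as induced by Ras, was at 8.22, 7.90, 7.13 and 7.45 in the same order, against 9.30 and 9.23. It was lower in all 4 arrays and lowest in the PIAS3 arrays (-1.59 ± 0.27, adjusted p = 0.212). RRAD, a small GTPase of the RGK family, stood at 4.47, 4.43, 4.18 and 4.26 against 5.70 and 5.33. Its difference was -1.18 ± 0.14 (adjusted p = 0.0957), and its other probe set differed by -1.42, also without overlap.

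The immediate early factor EGR3 was at 3.53, 3.40, 3.72 and 3.49 against 4.50 and 4.48, where the transfected levels lay within the range of the absent transcripts (-0.95 ± 0.11, adjusted p = 0.0957). HBEGF, a membrane-bound ligand of the EGF receptor, was at 6.54, 6.25, 6.68 and 6.42 against 7.52 and 7.41. That gave -0.99 ± 0.13 with an adjusted p of 0.136 and no overlap. The receptor itself, EGFR, was at 10.00, 10.06, 10.00 and 9.76 against 10.43 and 10.56 at its brightest probe set, a difference of -0.54 ± 0.11 (adjusted p = 0.27). Of its 6 probe sets 2 were lower in all 4 arrays, and the differences ran from -0.54 to 0.13. EREG, another EGF receptor ligand, differed by -0.64 ± 0.19 without overlap of the sides. DUSP1, the phosphatase that switches off MAP kinases, differed by -0.82 ± 0.15 at the dimmer of its probe sets, and there the PIAS3 arrays, at 9.12 and 9.05, were nearer to the controls than the siRNA arrays, at 8.61 and 8.81.

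Secreted and matrix-related genes formed another set of wide gaps. CCL2, the chemokine that attracts monocytes, was at 6.99 and 6.50 with the siRNA, 6.65 and 6.39 with PIAS3 and 8.16 and 8.21 in the controls. The nearest array was 1.18 log2 below the controls, and the difference of -1.55 ± 0.16 had a limma adjusted p of 0.0957. CCN1, the close relative of CCN2, was at 10.49, 10.30, 9.54 and 10.10 against 11.32 and 11.34. Both of its probe sets were lower without overlap, with differences of -1.23 ± 0.24 and -1.15 ± 0.19, with adjusted p of 0.256 and 0.174. GREM1, a secreted antagonist of BMP ligands, differed by -1.93 ± 0.40 and -1.99 ± 0.49 at its probe sets. In both, STAT3 siRNA replicate 1, at 5.30 and 6.26, stood well above the other transfected arrays. COL4A1, a chain of basement membrane collagen, differed by -1.06 ± 0.16 and tissue factor F3, the receptor that starts coagulation, by -1.21 ± 0.20. PRSS3, mesotrypsin, differed by -1.17 ± 0.16, but its probe set may share signal with near-identical trypsinogen genes, and so its value is uncertain.

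The lower set also held adhesion molecules and transcription factors. CEACAM6, a cell surface glycoprotein of epithelia, was at 9.46 and 9.59 with the siRNA, 10.16 and 9.60 with PIAS3 and 10.98 and 11.02 in the controls. Its probe sets differed by -1.29 ± 0.19 and -1.38 ± 0.25, and PIAS3 replicate 1 was the nearest array in both. CLDN1, a tight junction protein, was at 7.47, 7.47, 7.14 and 7.48 against 8.23 and 8.67 (-1.06 ± 0.16, limma adjusted p = 0.142). The transcription factor KLF4 differed by -0.92 ± 0.13 at each of its probe sets in this set. TIPARP, an ADP-ribosyltransferase induced by the aryl hydrocarbon receptor, was at 10.07, 9.54, 9.44 and 9.64 against 11.05 and 11.16, a difference of -1.43 ± 0.17. Among 7 measured targets of that receptor it was the only 1 below both controls in all 4 arrays. ALDH3A1 lay above (0.93 ± 0.32), and the median difference was 0.03. SNAI2, a repressor of epithelial adhesion genes, differed by -1.42 ± 0.31, and GATA6, a lineage factor of lung epithelium, by -0.95 ± 0.20. ATF3, a stress-induced factor, showed an uneven shift: 6.53, 6.27 and 6.65 in the siRNA arrays and PIAS3 replicate 2, but 8.37 in PIAS3 replicate 1, against 8.92 and 8.88 in the controls.

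No higher probe set passed the adjusted threshold, and the widest gaps on that side were narrower. TBX3, a T-box transcriptional repressor, had the widest, at 7.26 and 7.67 with the siRNA and 7.34 and 7.42 with PIAS3 against 6.53 and 6.56. The difference was 0.87 ± 0.12 with a limma adjusted p of 0.137. NTRK3, the receptor for neurotrophin-3, was at 9.73, 10.01, 9.80 and 9.78 against 9.08 and 9.11, a difference of 0.73 ± 0.10 (adjusted p = 0.137). All 7 NTRK3 probe sets lay above both controls in all 4 arrays, including 3 whose identifiers mark possible signal from other transcripts. MAP2K6, a kinase that activates p38, was at 8.06, 8.05, 8.15 and 8.25 against 7.31 and 7.47 (0.74 ± 0.10). VAV3 differed by 1.09 ± 0.17 and its other probe set by 1.04.

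ID1 and ID2, helix-loop-helix proteins that block differentiation factors and answer to BMP signals, were both higher without overlap. ID1 was at 10.72, 11.52, 12.20 and 11.32 against 10.10 and 10.04, and ID2 at 9.33, 10.40, 9.57 and 9.90 against 8.30 and 8.72. Their differences were 1.37 ± 0.34 and 1.29 ± 0.28, with limma adjusted p of 0.369 and 0.291, and the transfected arrays spread by more than 1 log2. ABCG1 and ABCA1 are transporters that export cholesterol from cells. ABCG1 stood at 6.08, 6.61, 6.77 and 7.28 against 5.13 and 5.45 (1.39 ± 0.29). ABCA1, named after its values were seen, was higher at its probe sets by 0.81 ± 0.16 and 0.63 ± 0.10.

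Others on the higher side were carried unevenly by the arrays. DEFB1, an antimicrobial defensin of epithelia, was at 5.84 and 7.18 with the siRNA and 6.28 and 7.56 with PIAS3 against 5.21 and 5.19. In both transfections replicate 2 was the higher array, and the difference was 1.52 ± 0.44 with a limma adjusted p of 0.423. TM4SF4, a tetraspan membrane protein, was at 8.89 in STAT3 siRNA replicate 1 and at 10.24, 10.30 and 10.40 in the other transfected arrays, against 8.33 and 8.32 in the controls. VAMP1, a vesicle fusion protein, differed by 1.07 ± 0.22, and was higher with PIAS3, at 7.26 and 6.91, than with the siRNA, at 6.44 and 6.61.

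**Figure D2:**
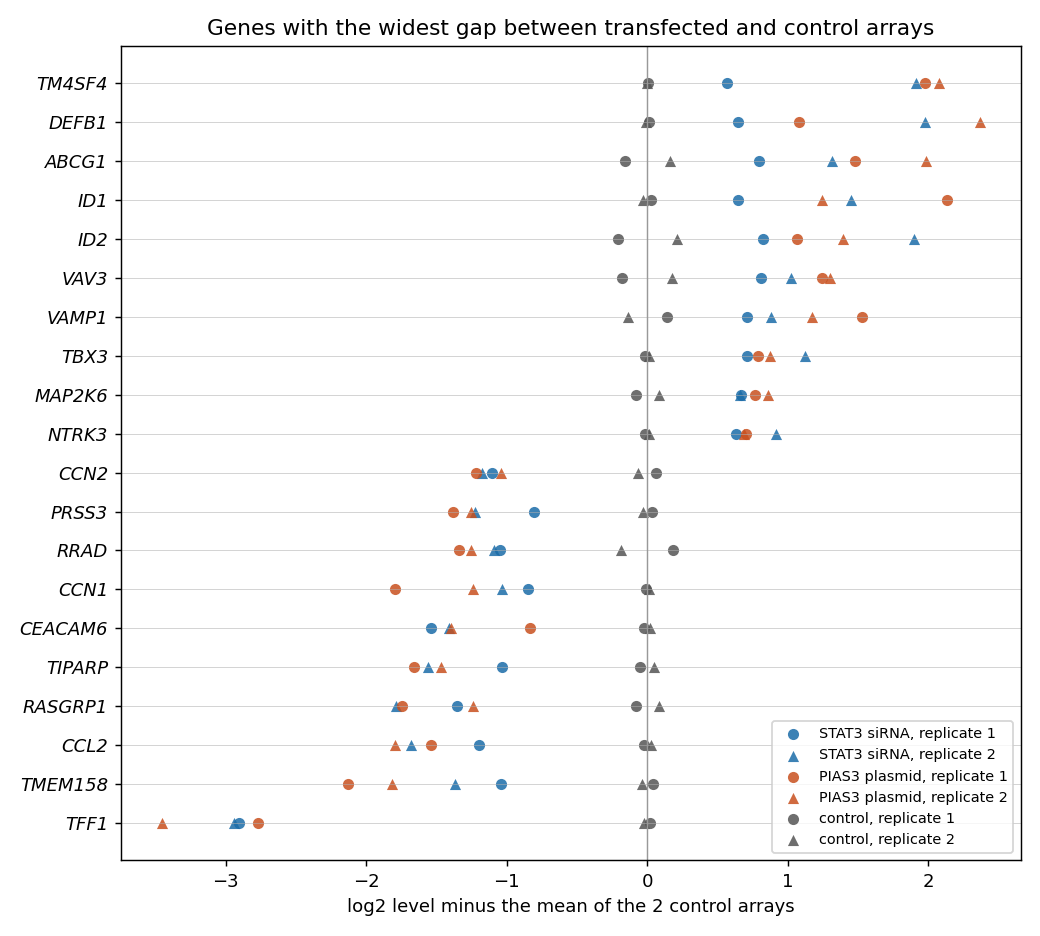
Each point is 1 array's log2 level minus the mean of the 2 control arrays (horizontal axis) for the 10 higher and 10 lower genes described above by their gap. Circles are replicate 1 and triangles replicate 2; blue marks STAT3 siRNA, orange PIAS3 and grey the controls. TFF1 lies near -3 in all 4 transfected arrays and CCN2 near -1, while TM4SF4, DEFB1 and ID1 are spread over more than 1 log2.

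Other probe sets of the same genes were read beside those that define the sets. The 63 lower probe sets included 56 with 1 symbol, from 48 genes, and the other 7 stay unnamed. Of the 48, 16 genes had 27 further probe sets below the 0.5 threshold. Of those 27, 26 differed in the same direction, 16 were shifted alike and 0 were shifted alike in the opposite direction. The 14 higher probe sets came from 12 genes, with 15 further probe sets of 8 genes, 14 of them in the same direction and 12 shifted alike. These probe sets read the same RNA on the same arrays and are not independent samples. The median difference was -1.09 in the lower set, from -3.02 to -0.67, and 0.97 in the higher set, from 0.63 to 1.63.

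Promoters of the genes in the lower set are shown where they hold TGANTCA, the motif of the AP-1 factors of the FOS and JUN families that growth factor signalling induces. It occurred in 7 of 39 promoters of the lower set (17.9%), in 1 of 9 of the higher set (11.1%), in 5.43% of the 9563 promoters of measured genes and in 7.76% of all 27305. Other motifs were searched as well, and no share was tested. TATAAA occurred in 17.9% of the lower set against 8.3% of measured genes, and the STAT pattern TTCNNNGAA in 12.8% against 6.64%. The CArG box of serum response factor occurred in 0 of 39, and GCGTG in 30.8% against 46.6%. The 39 leave out genes without a promoter entry, TFF1, CCL2, CCN1 and RRAD among them. The windows of 4 of the lower genes and of the single higher gene follow, from RefSeq on GRCh38.p14, 5′ to 3′, with TGANTCA in capitals and 12 bases on each side.
F3, chr1:94541964-94541994, minus strand: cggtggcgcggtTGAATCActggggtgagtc
F3, chr1:94541951-94541981, minus strand: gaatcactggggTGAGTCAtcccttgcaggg
MMP7, chr11:102530796-102530826, minus strand: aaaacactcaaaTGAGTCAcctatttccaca
GPNMB, chr7:23246629-23246659, plus strand: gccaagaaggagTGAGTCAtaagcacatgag
TNFRSF9, chr1:7940865-7940895, minus strand: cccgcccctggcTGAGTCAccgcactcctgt
VAV3, chr1:107688597-107688627, minus strand: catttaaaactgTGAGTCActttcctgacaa
F3 held 2 matches, whose windows overlap. MMP7, a secreted matrix protease, differed by -0.95 ± 0.21, GPNMB, a membrane glycoprotein, by -0.83 ± 0.13 and TNFRSF9, a costimulatory receptor, by -0.88 ± 0.14, all with limma adjusted p above 0.05. The letters describe these windows and show neither binding nor a cause of the values.

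The rest of the lower set was more varied in function and smaller in gap. CDCP1, a membrane substrate of Src kinases, was at 8.89, 8.59, 8.38 and 8.54 against 9.81 and 9.57 (-1.09 ± 0.15, limma adjusted p = 0.137). SAMD4A, an RNA-binding repressor of translation, was at 7.74, 7.58, 7.28 and 7.52 against 8.52 and 8.45 (-0.95 ± 0.13). NFE2L3, a relative of NRF2, differed by -0.87 ± 0.11, COL5A1, a fibrillar collagen chain, by -1.44 ± 0.32, PDLIM7, an actin-associated scaffold, by -1.42 ± 0.38 and CD59, which shields cells from complement, by -0.74 ± 0.14. In COL5A1 and PDLIM7 STAT3 siRNA replicate 1, at 10.04 and 7.96, was well above the other transfected arrays. Over the 63 lower probe sets that array was nearest to the controls in 38, and PIAS3 replicate 1 was farthest in 35. Genes in this paragraph were named after their values were seen.

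The same shift was then read over gene lists, with the brightest probe set standing for each of 11963 genes. Of all genes, 1078 (9.01%) lay above both controls in all 4 transfected arrays, 1275 (10.7%) lay below, and the median difference was -0.003. In the lists below, TFF1 and CCN2 were the only members that passed the limma test at an adjusted p of 0.05. The counts are therefore of probe sets without overlap, and no list was tested.

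Genes of the actin cytoskeleton that serum response factor regulates were lower as a group. Of 20 measured, 11 lay below both controls in all 4 arrays and 1 above, and 2 had a positive difference, with a median of -0.44. VCL, the focal adhesion protein vinculin, was at 11.40, 11.17, 10.73 and 11.12 against 11.83 and 11.78 (-0.70 ± 0.17). SRF, the factor itself, differed by -0.48 ± 0.11, TPM1, a tropomyosin, by -0.45 ± 0.10 and ACTN1, an actin cross-linker, by -0.40 ± 0.10. The sides overlapped at the other probe set of SRF, which differed by 0.07, and at that of VCL, which differed by -0.17. Of the TPM1 probe sets 3 of 4 were lower without overlap, and of those of ACTN1 3 of 3. The list's median by array was -0.20 and -0.48 with the siRNA and -0.61 and -0.35 with PIAS3, so that all 4 arrays lay on the same side. TGF-beta and matrix genes had 12 of 23 below and 4 above, with a median of -0.21. The 12 included the collagens COL4A1, COL4A2 and COL5A1 with CCN1 and CCN2, and the 4 above were ID1, ID2, ID3 and SKIL. Among YAP and TEAD targets 8 of 20 lay below and 0 above, 8 had a positive difference, and the median was -0.10. CCN1 and CCN2 count in both this list and that of TGF-beta and matrix genes.

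Of 24 EGF and ERK response genes, 7 lay below in all 4 arrays and 1, the inhibitor SPRY1, above. The 7 were EGR3, HBEGF, SPRY2, JUN, FOSL1, MYC and DUSP1, and the list's median was -0.15. SPRY2, a feedback inhibitor of receptor signalling, was at 8.46, 8.18, 8.28 and 8.16 against 8.96 and 8.96 (-0.69 ± 0.11, limma adjusted p = 0.174). JUN, an AP-1 subunit, differed by -0.60 ± 0.15. The list was not even across arrays: its median was -0.50 and -0.16 with the siRNA and -0.20 in PIAS3 replicate 2, but 0.15 in PIAS3 replicate 1. NF-kB targets had 4 of 19 below and 0 above with a median of -0.15, the 4 being CCL2, RELB, NFKB1 and TNF, and again PIAS3 replicate 1 had a median of 0.13 where the other 3 arrays were negative. The EGF receptor family and its ligands had 3 of 9 below (HBEGF, EGFR and EREG), with a median of -0.26.

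Mitotic genes were higher. Of 36 G2/M and mitosis genes, 16 lay above both controls in all 4 arrays and 0 below, 34 had a positive difference, and the median was 0.30. CENPE, a kinetochore motor, was at 7.92, 8.01, 8.23 and 7.86 against 7.43 and 7.33 (0.62 ± 0.12, limma adjusted p = 0.256). PTTG1, securin, differed by 0.53 ± 0.12 and CDC25B, a phosphatase that activates mitotic kinases, by 0.50 ± 0.12. The median by array was 0.48 and 0.33 with the siRNA and 0.08 and 0.30 with PIAS3. Of 29 G1/S and DNA replication genes, 9 lay below and 1 above, with a median of -0.23. That median was -0.62 in PIAS3 replicate 1 and between -0.11 and -0.06 in the other arrays, and it was -0.07 over the pooled side without PIAS3 replicate 1. In whole cultures a larger share of cells in a phase cannot be told apart from more RNA of these genes in each cell.

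NRF2 targets, antioxidant genes in the main, lay higher and cholesterol synthesis genes lower. Of 22 NRF2 targets, 8 lay above and 0 below, 21 had a positive difference, and the median was 0.22. HMOX1, heme oxygenase, was at 9.87 in STAT3 siRNA replicate 1 and 10.99, 10.98 and 11.07 in the other transfected arrays, against 9.60 and 9.62 (1.12 ± 0.32, limma adjusted p = 0.423). GCLC and GCLM, the subunits of the enzyme that limits glutathione synthesis, differed by 0.72 ± 0.22 and 0.50 ± 0.12. By array the list's median was 0.03 and 0.24 with the siRNA and 0.30 and 0.31 with PIAS3. The 0.03 of STAT3 siRNA replicate 1 was close to the median of all genes in that array, 0.02. Of 12 cholesterol synthesis genes, 6 lay below, and 0 of 12 had a positive difference, with a median of -0.14. INSIG1, which holds back cholesterol synthesis, differed by -0.62 ± 0.19 and SQLE, squalene epoxidase, by -0.28 ± 0.09.

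Apoptosis and p53 genes, which the design text names as the study's subject, had members without overlap on both sides. Of 11 pro-apoptotic BCL2 family genes, 1 lay above and 2 below, and of 9 anti-apoptotic genes 1 lay above and 1 below. Among 14 caspase and apoptosome genes 1 lay above, CASP9, at 8.06, 7.95, 8.08 and 8.14 against 7.73 and 7.84 (0.27 ± 0.09, limma adjusted p = 0.484). Death receptors and ligands had 1 of 12 above and 3 below, of which TNFRSF21, death receptor 6, differed by -0.61 ± 0.14 and the adaptor FADD by -0.36 ± 0.15. Of 17 p53 targets 2 lay above and 3 below, among them the growth arrest gene GADD45A at -0.88 ± 0.14. The list medians ran from -0.14 to 0.03, and over all genes 9.01% lay above and 10.7% below.

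STAT3 targets were mixed, with 5 of 28 above, 4 below and a median of -0.01. FGG and FGA, fibrinogen chains of the acute phase response, had the largest differences, and the arrays varied widely. FGG was at 6.21 and 7.92 with the siRNA and 9.57 and 8.61 with PIAS3 against 5.93 and 5.64 (2.29 ± 0.77, limma adjusted p = 0.486). OSMR, a cytokine receptor subunit, differed by -0.34 ± 0.10. Of 23 JAK, STAT, PIAS and SOCS genes, 1 lay above (STAT4, 0.53 ± 0.11) and 5 below. Among 9 genes of the RNA interference machinery 0 lay above and 2 below (22.2%, against 10.7% of all genes), while 5 had a positive difference and the median was 0.05. The 2 were DICER1, the nuclease that makes small RNAs, at -0.39 ± 0.13 and AGO1 at -0.23 ± 0.14. Of 6 DICER1 probe sets 3 were lower in all 4 arrays, and the differences ran from -0.53 to 0.04.

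The interferon-stimulated genes had the highest list median, 0.81, and it came with a single array. Of 30 genes 3 lay above (IFITM1, IRF9 and IFIT1) and 0 below. The list's median was 3.53 in PIAS3 replicate 1 and -0.07, -0.04 and 0.00 in the other transfected arrays, and it was -0.03 over the pooled side without PIAS3 replicate 1. IFITM1, which restricts viral entry, was at 11.44 in that array and between 6.14 and 6.38 in the other transfected arrays, against 5.98 and 5.79 in the controls. The pooled mean of these genes therefore did not stand for the 4 transfected arrays.

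**Figure D3:**
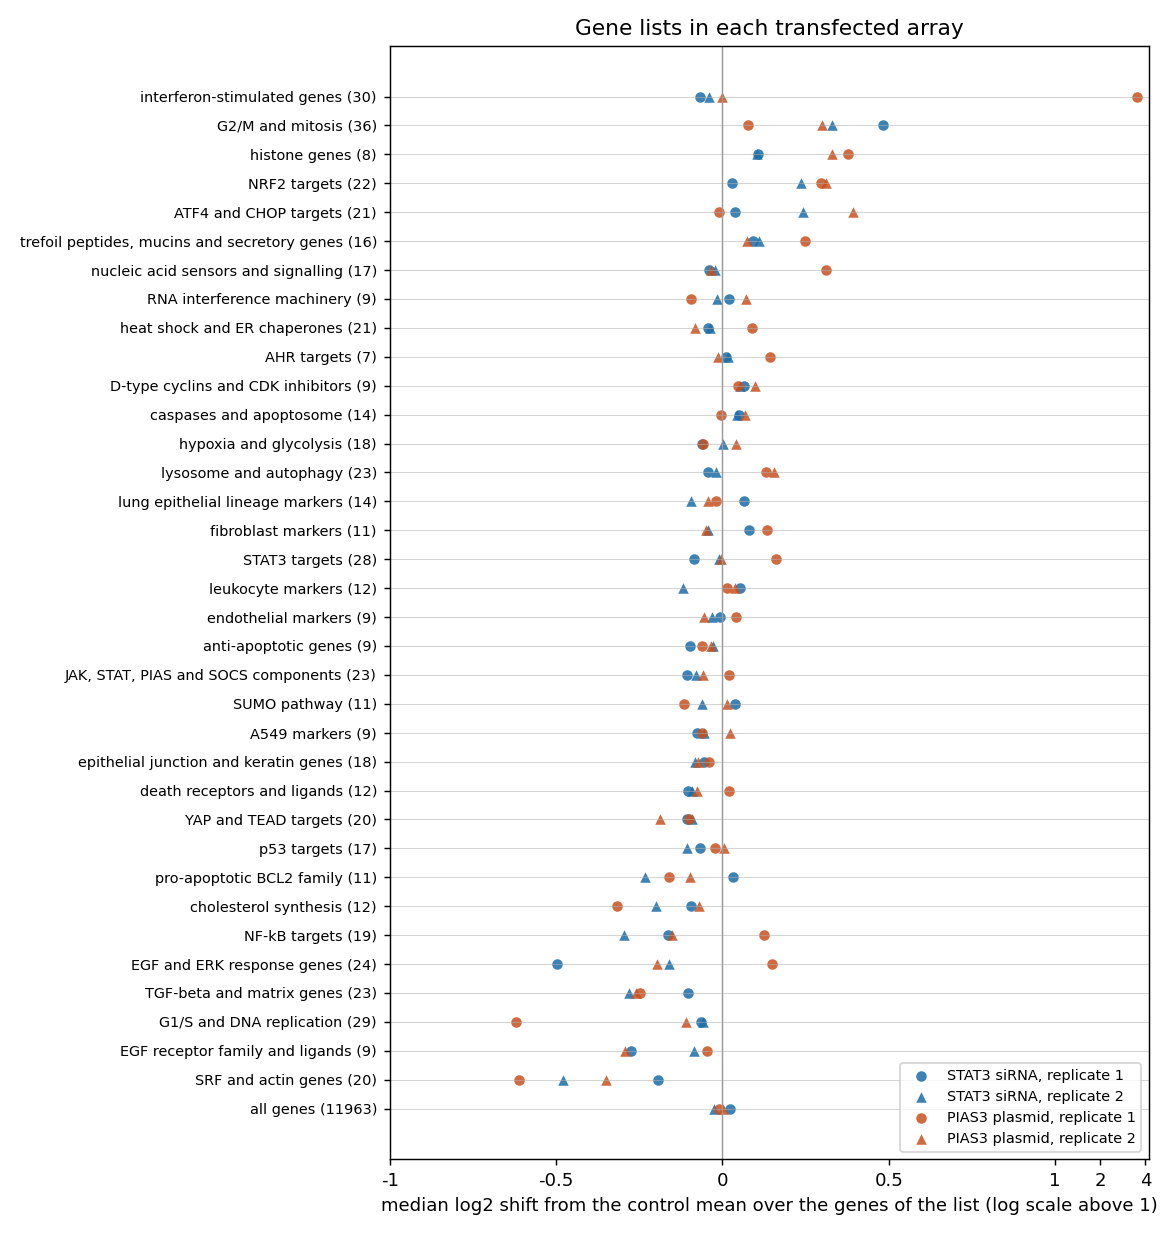
For each of 35 gene lists and for all genes, the median log2 shift from the control mean (horizontal axis, logarithmic above 1) is given for each transfected array; the number of genes is in brackets. Actin, matrix and cholesterol genes lie left of 0 and mitotic and NRF2 genes right of 0 in all 4 arrays. In STAT3 siRNA replicate 1 the NRF2 median, 0.03, is close to that of all genes, 0.02. The interferon list is at 3.53 in PIAS3 replicate 1 and near 0 in the others.

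Whether the shared shift differed between the transfections was tested in a limma fit of all 6 arrays with 3 group means, whose spread includes the control arrays. The contrast of PIAS3 minus STAT3 siRNA called 0 of 22215 probe sets at an adjusted p of 0.05 (0%), and 1799 (8.1%) had an unadjusted p under 0.05. Among the probe sets shifted alike, 188 of the 1832 higher (10.3%) and 201 of the 2294 lower (8.76%) had such a p, and with a gap of at least 0.5 there were 3 of 14 and 17 of 63 (27%). The PIAS3 arrays had the larger mean shift in 1319 of the 1832 and 1620 of the 2294. These sets were picked from the same transfected values, so their counts only describe them. The shares cannot be set against the 8.1% over all probe sets as a test. Some genes of the lower set differed little between the transfections. For CCN2 the PIAS3 minus siRNA difference was 0.01 ± 0.12 (SE), for the orphan receptor tyrosine kinase ROR1 it was -0.07 ± 0.11 and for the neural adhesion molecule L1CAM it was 0.00 ± 0.12. ROR1 stood at 7.95 and 8.03 with the siRNA and 7.99 and 7.85 with PIAS3, against 8.79 and 8.67 in the controls, so the 4 transfected arrays were nearly level. Others were lowest with PIAS3, by differences that did not pass the adjusted threshold. GLIPR1, a gene induced by p53 in some cells, was at 8.49 and 7.61 with the siRNA and 6.23 and 6.98 with PIAS3 against 9.18 and 9.35, a PIAS3 minus siRNA difference of -1.44 ± 0.32 (limma adjusted p = 0.607). The kinase DCLK1 differed likewise by -1.26 ± 0.30, the Eph receptor ligand EFNB2 by -1.37 ± 0.41, the sialomucin PODXL by -0.78 ± 0.18, TMEM158 by -0.77 ± 0.16 and CCN1 by -0.58 ± 0.18, each with the same adjusted p. The brighter CCN1 probe set differed by only -0.28 ± 0.20 (limma adjusted p = 0.699). In GLIPR1, DCLK1 and EFNB2 at these probe sets the lowest array was PIAS3 replicate 1 and the one nearest to the controls STAT3 siRNA replicate 1. At another EFNB2 probe set of the lower set the PIAS3 minus siRNA difference was -0.39 ± 0.21. There PIAS3 replicate 2, at 5.34, was the lowest array. Without PIAS3 replicate 2 the contrast called 282 higher and 262 lower. PIAS3 replicate 1 is then the only PIAS3 array, and it is assumed to vary like the other groups.

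A single array set the edge of the shared shift most often. STAT3 siRNA replicate 1 was the transfected array nearest to the controls in 814 of 1832 higher probe sets (44.4%) and in 1074 of 2294 lower ones (46.8%). For the other 3 arrays the shares ran from 12.6% to 24.1%. The median shift of the higher probe sets was 0.16 in STAT3 siRNA replicate 1, 0.20 in replicate 2, 0.27 in PIAS3 replicate 1 and 0.26 in replicate 2. The lower probe sets had medians of -0.16, -0.22, -0.33 and -0.22 in the same order. The actin control probe sets, 3′ minus 5′, a measure of RNA or cDNA length, read 0.155 and 0.229 log2 with the siRNA and 0.43 and 0.281 with PIAS3, against 0.117 and 0.0953 in the controls. All 4 transfected arrays were above both controls there too, and its part in the shared shift was not tested.

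The number of calls moved with the array left out. Without STAT3 siRNA replicate 1 limma called 175 probe sets higher and 188 lower, and of these 363, 264 were shifted alike in all 4 arrays, the one left out included. Without PIAS3 replicate 1 it called 2 higher and 24 lower, 23 of the 26 shifted alike in all 4. These overlaps are no separate support, because the calls and the ordering share most arrays. Over all probe sets, 2970 higher and 3943 lower were shifted alike without STAT3 siRNA replicate 1. Without PIAS3 replicate 1 there were 2849 and 3043, and with all arrays 1832 and 2294. Leaving out any array can only add to these counts, because fewer arrays have to be ordered. The rise is therefore no result about the array left out, and the counts were larger again without either control array. The 24 called lower without PIAS3 replicate 1 included ATF3 (-2.42 ± 0.12), CEACAM6, CCL2, RASGRP1, TIPARP, HBEGF, EGR3 and CCN1. KLF6, a zinc finger factor of the early response, was also among them at both probe sets, and so was JUN. FOSB and CXCL8 were called too, and in PIAS3 replicate 1 their levels were not below both controls. The calls were 0 higher and 0 lower without STAT3 siRNA replicate 2, without control replicate 1 and without control replicate 2, and 0 higher and 1 lower, TFF1, without PIAS3 replicate 2. The part of array quality in these counts was not tested.

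**Figure D4:**
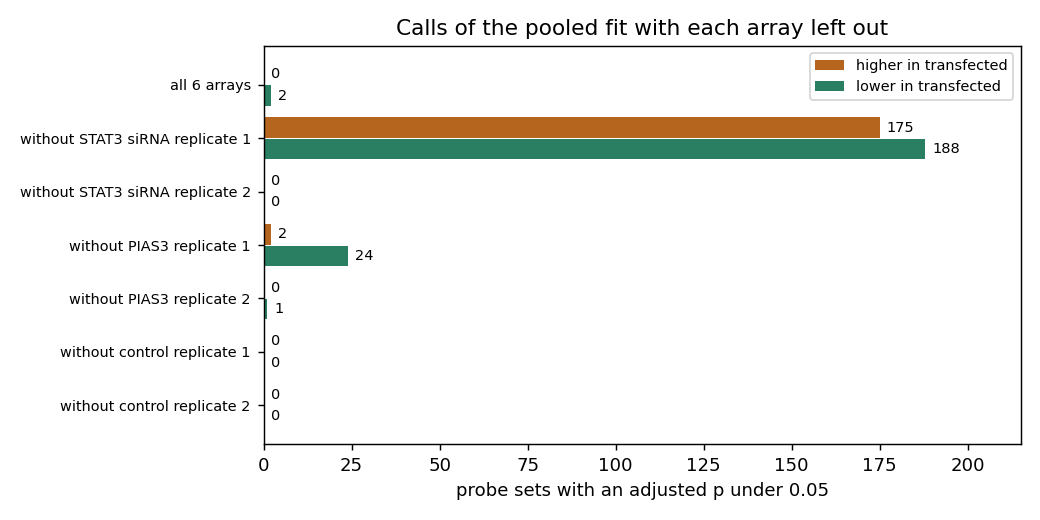
Bars give the number of probe sets with a limma adjusted p under 0.05 (horizontal axis) for all 6 arrays and with each array left out, higher and lower in the transfected arrays separately. Counts run from 0 to 175 higher and from 0 to 188 lower, with the most without STAT3 siRNA replicate 1.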

How the data were processed

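Values are log2 levels for each probe set, as deposited. The submitters' processing notes name RMA, without a version, for background correction, normalization between arrays and summary over probes; it takes most genes as unchanged and compresses small changes of dim probe sets. The build, the annotation version and the software are not stated there. Hybridization dates and scanner output were not used, so array batches were not tested. Groups and replicate numbers came from the sample titles. No 2 arrays held identical values, and the number of arrays limits the precision.

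Of 22277 probe sets, 62 array controls were left out. In the supplied platform annotation 19064 probe sets had 1 symbol, of which 19052 matched a gene identifier, while 1043 with several symbols and 2108 with none stayed unnamed. Sides were compared with two-sided limma tests (lmFit, eBayes; limma 3.58.1, R 4.3.3) on 4 residual degrees of freedom, and errors beside log2 differences are standard errors. The fit was tested on simulated data.

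The members, the 35 gene lists (548 of 632 symbols measured) and the tests were chosen with earlier results of these data known. Named genes were STAT3 and PIAS3, those passing the adjusted threshold, the 10 widest gaps in each direction at an unadjusted p under 0.05 and up to 4 members of a list with the smallest p; others were named after their values were seen. Lists not described had medians between -0.06 and 0.25.

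Alternatives comprised 3 group means, a replicate block, repeated quantile normalization, median centring, cyclic loess, removal of probe sets with a mean below the 40th percentile, a trended or robust eBayes prior, an adjusted p of 0.10, the mean over a gene's probe sets, and the omission of single arrays. Array weights were chosen after seeing the data. Promoters were matched by symbol for 9563 measured genes. The plots used matplotlib 3.10.9 (Python 3.11.15).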

Additional observations from a re-analysis of the deposited data

Results flagged for a closer look

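Among 145 named genes, 14 had 1 of the 4 transfected arrays far from the other 3, and 8 of the 14 were PIAS3 replicate 1. The genes were picked from these same data and some vary together, so the 14 cannot be set against a rate expected by chance. In that array IFITM1 was at 11.44, IRF9 at 11.44 and IFIH1, a sensor of viral RNA, at 9.67, where the others were at 6.14 to 6.38, 8.09 to 8.58 and 4.13 to 4.59. BCL2L2 was high there at 8.56 (8.05 to 8.09 elsewhere) and HRK at 5.20 (5.12 to 5.13). FADD was low at 8.95 (9.38 to 9.46), SENP3 at 8.47 (8.91 to 8.96) and CLDN1 at 7.14 (7.47 to 7.48). STAT3 siRNA replicate 1 was low for TM4SF4 at 8.89 (10.24 to 10.40), CYP1B1 at 7.84 (8.82 to 8.94) and HMOX1 at 9.87 (10.98 to 11.07). STAT3 siRNA replicate 2 was high for STC2 at 8.17 (7.93 to 7.96) and CCND1 at 8.98 (8.55 to 8.62). PIAS3 replicate 2 was high for FBLN1 at 8.15 (7.83 to 7.86).

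PIAS3 itself lay on opposite sides of the controls, above them in both PIAS3 arrays and below them in both siRNA arrays. The difference between the transfections was 0.18 log2, with a limma adjusted p of 0.666. The array control probe sets, outside the comparison, were high in PIAS3 replicate 1, by a median of 1.41 for the poly-A spike-ins and 0.48 for the 18 hybridization spike-ins.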

How the results depend on the processing

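The pooled fit called 0 higher and the same 2 lower probe sets under repeated quantile normalization, median centring, cyclic loess, the filter and eBayes with a trend or made robust. At an adjusted p of 0.10 it called 7 lower, and with 3 group means 1 lower, TFF1. The replicate numbers did not pair the arrays (same-number deviations correlated at -0.06 to 0.09), and with the replicate block there was 1 call lower, TFF1 (adjusted p = 0.0133; CCN2 0.145). Array weights, chosen after seeing the data, gave 130 higher and 228 lower. Leaving out each array gave 0 to 175 calls higher and 0 to 188 lower. Counts shifted alike ran from 2416 to 3754 higher and from 2792 to 4754 lower when an array was left out, where fewer arrays have to be ordered. The filter left 1221 higher, from fewer probe sets tested, and a gap of at least 0.5 left 14 higher and 63 lower. PIAS3 minus STAT3 siRNA gave 0 to 282 higher and 0 to 262 lower without an array, and 0 in both directions under the other alternatives. Over 145 named genes and 15 alternatives, 2047 differences kept their direction and side of the threshold, 97 passed it newly, 9 no longer passed it and 3 turned. With single arrays left out, PIAS3 ran from -0.083 to 0.0085 (without STAT3 siRNA replicate 1), BCL2 from -0.27 to 0.13 (without control replicate 1) and CSF1R from -0.205 to 0.064 (without control replicate 2). None of the 3 passed the threshold, and the cause was not tested. Of 35 list medians, 16 changed sign under some alternative. Depth cannot be read from array values, and 198 higher and 156 lower probe sets shifted alike lay near the level of absent transcripts.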
